A study of Mus musculus with 6 samples.

Results

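The SLAM family is a group of leukocyte surface receptors, and SAP, the product of Sh2d1a, is the small adaptor that most of them use to signal. Slamf1, Slamf6, Slamf7, Cd48, Cd84, Ly9 and Sh2d1a were chosen by name, and every probe set that the platform annotation gives to these genes alone was taken. This gave 12 probe sets for 7 genes, out of 45037 probe sets tested and 18193 genes. The arrays were hybridized with RNA of T cells isolated from single spleens by negative selection, a procedure that removes other cells and leaves T cells untouched. All mice were males on the C57BL/6 background, 10 weeks old. There were 3 mice lacking miR-142 (miR-142 KO) and 3 wild-type littermates (WT), with 1 array each. The labels say that KO mice lack miR-142 without naming a cell type to which the deletion is limited, and how the allele was made is not given in the sources used here.

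SLAM receptors belong to the immunoglobulin superfamily. Most of them bind a copy of themselves on a touching cell, while CD48, which is tethered to the membrane by a lipid anchor and has no cytoplasmic tail, is a ligand of CD2 and of CD244. In the tails of most other members, phosphorylated tyrosines recruit SAP, which brings in the kinase FYN. This signalling is known for its part in the development of natural killer T cells and in the long contacts between T follicular helper cells and B cells, and loss of SAP causes an immunodeficiency in humans, X-linked lymphoproliferative disease.

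The microRNA that the KO mice lack is shown first, because its absence is the contrast behind each value given here. RefSeq (GRCm38.p6) places its mature strands at chr11:87756867-87756887 and chr11:87756903-87756925, both on the plus strand. They read as follows, 5′ to 3′, with the seed (bases 2 to 8, which pair with targets) in capitals.
mmu-miR-142a-5p: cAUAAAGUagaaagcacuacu
mmu-miR-142a-3p: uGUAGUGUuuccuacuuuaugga
The probe set annotated Mir142 had a log2 intensity of 7.93, 8.13 and 7.67 in WT replicates 1 to 3 and of 5.97, 5.88 and 5.90 in KO replicates 1 to 3. All KO arrays lay below all WT arrays, but whether this probe set lies in the deleted part was not known here, so it is only a limited check of the labels.

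Values are log2 intensities from RMA, a method that corrects background, quantile-normalizes the arrays and summarises the probes of a probe set. One log2 unit is a doubling, and probe sets differ in brightness for reasons other than abundance, so levels were compared only within a probe set. The 3 arrays per group limit the precision. Array medians lay between 5.70 and 5.77. Over all probe sets, which depend on each other, Pearson correlations were 0.994 to 0.996 among WT arrays, 0.986 to 0.995 among KO arrays and 0.940 to 0.965 between genotypes. The 18 hybridization controls averaged 10.21 in WT and 9.85 in KO, and the 18S ribosomal controls stood at 9.66, 9.47 and 9.51 in WT and at 7.86, 9.15 and 9.19 in KO. The gap between the 3′ and 5′ Actb controls, a sign of RNA integrity, was 0.20, 0.16 and 0.23 in WT and 0.40, 0.36 and 0.32 in KO. For the hybridization controls, the 18S controls and the Actb gap the groups did not overlap. The part of the 18S and Actb measures in the results was not tested, and values scaled to the hybridization controls are given below. The labelled cell type was checked with T cell markers. Their mean over 11 measured genes was 12.03 to 12.05 in WT, and it was 10.52, 9.30 and 10.69 in KO replicates 1, 2 and 3. T cell markers were thus bright in all arrays and lower in KO, and lowest in KO replicate 2.

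Transcripts of all 7 SLAM family and SAP genes fell in KO when each gene was taken at its brightest probe set, from 4.23-fold for Sh2d1a to 1.57-fold for Slamf7. Fell, rose and changed stand for a limma p value adjusted with Benjamini-Hochberg over all probe sets below 0.05. Of the 12 probe sets 11 fell, against a background of 15.5% of all probe sets tested, and for genes the background was 18.6% that fell. The median difference of the 7 genes was -1.64 (KO minus WT, log2), beside -0.06 over all genes. The same 11 probe sets were those with every KO array below every WT array, a pattern seen in 27.4% of all probe sets. By gene, all 7 had separate groups in that direction, beside 29.7% of all genes. In bulk RNA, fewer cells of a type and less RNA per cell cannot be told apart.

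**Figure D1:**
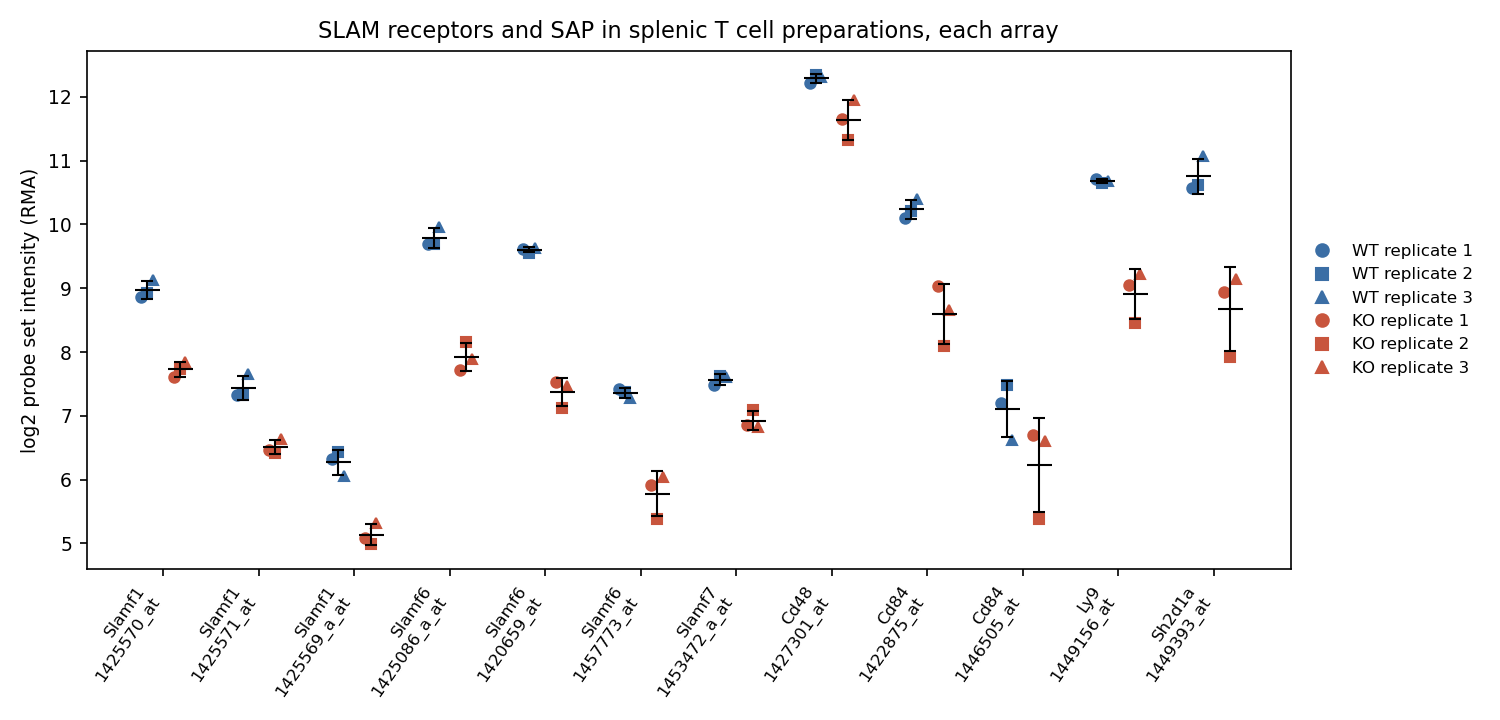
Log2 RMA intensity of each of the 12 probe sets of the SLAM receptors and SAP in each array (WT blue, KO red, symbols by replicate number), with mean and SD as black bars (n = 3 per group). In 11 probe sets the KO points lie below the WT points, and in Cd84 probe set 1446505_at the groups overlap.

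Sh2d1a, on chromosome X, encodes SAP and had the largest fall among the 7 genes at their brightest probe sets. Its values were 10.58, 10.62 and 11.07 in WT replicates 1 to 3 and 8.95, 7.92 and 9.14 in KO replicates 1 to 3. The lowest WT array stood well above the highest KO array, and KO replicate 2 was lower than the other KO arrays. The difference was -2.08 ± 0.31 (SE, n = 3 per group; 95% interval -2.82 to -1.35; limma adjusted p = 0.0023). Of 18193 genes, 0.61% fell by as much or more.

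Slamf6 encodes Ly108, a receptor that binds itself and signals through SAP in T and B cells. Its brightest probe set, 1425086_a_at, which can match several transcript forms of the gene, read 9.70, 9.70 and 9.97 in WT and 7.72, 8.16 and 7.89 in KO, in replicate order. The groups did not overlap, and the difference was -1.87 ± 0.14 (SE; limma adjusted p = 0.00011). Probe set 1420659_at read 9.62, 9.56 and 9.64 in WT and 7.54, 7.12 and 7.46 in KO, a larger difference of -2.23 ± 0.12 (limma adjusted p = 4e-05). That fall was also larger than the fall of Sh2d1a. The dimmer 1457773_at read 7.42, 7.38 and 7.27 in WT and 5.92, 5.38 and 6.04 in KO, a difference of -1.58 ± 0.17. The 3 probe sets went the same way, but they ranked the KO arrays differently. KO replicate 2 was the highest KO array in 1425086_a_at, by 0.35 over the mean of the other KO arrays, and the lowest in 1420659_at and 1457773_at, by -0.38 and -0.60. The gap between 1425086_a_at and 1420659_at was 0.08, 0.14 and 0.33 in WT and 0.18, 1.03 and 0.43 in KO, which overlapped (two-sided exact permutation p = 0.2, where 0.1 is the smallest that 3 against 3 arrays allow).

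Ly9 encodes CD229, another receptor that binds itself. It had 1 probe set, with 10.71, 10.66 and 10.67 in WT and 9.04, 8.46 and 9.22 in KO. The WT arrays lay within a narrow band far above the KO arrays. The difference was -1.77 ± 0.19 (SE; limma adjusted p = 0.00049).

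Cd84 encodes CD84, a receptor of lymphocytes that is also known on platelets, mast cells and myeloid cells. Its bright probe set 1422875_at read 10.10, 10.21 and 10.40 in WT and 9.04, 8.09 and 8.66 in KO, with no overlap. The difference was -1.64 ± 0.23 (SE; limma adjusted p = 0.0016). Its other probe set, 1446505_at, read 7.21, 7.48 and 6.62 in WT and 6.70, 5.38 and 6.61 in KO. There KO replicate 1 lay above WT replicate 3, and the difference of -0.87 ± 0.37 did not pass the test (limma adjusted p = 0.13, 95% interval -1.75 to 0.01).

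Slamf1 encodes CD150, the founding member of the family, which is found on activated and memory lymphocytes and on blood stem cells. Its brightest probe set, 1425570_at, read 8.87, 8.92 and 9.13 in WT and 7.61, 7.73 and 7.84 in KO. The KO arrays were as close to each other as the WT arrays and lay below them. The difference was -1.24 ± 0.11 (SE; limma adjusted p = 0.00021). Probe sets 1425569_a_at and 1425571_at gave -1.14 ± 0.13 and -0.93 ± 0.12, also with separate groups. All 3 Slamf1 probe sets derive from the same sequence record, so they are not independent of each other.

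Cd48 and Slamf7 had the smallest falls. Cd48, present on most blood cells, read 12.22, 12.34 and 12.31 in WT and 11.65, 11.32 and 11.95 in KO. The groups did not overlap, and the difference was -0.65 ± 0.16 (SE; limma adjusted p = 0.019). The Cd48 call was lost without WT replicate 1, 2 or 3 (limma adjusted p = 0.051, 0.068 and 0.058), and after scaling to the hybridization controls the difference was -0.28 (limma adjusted p = 0.23). Slamf7 encodes CRACC, a receptor of NK cells, plasma cells and other activated leukocytes that is known to work without SAP. It read 7.48, 7.62 and 7.61 in WT and 6.85, 7.10 and 6.82 in KO, a difference of -0.65 ± 0.10 (SE; limma adjusted p = 0.0032). That call too was lost after scaling to the hybridization controls, at -0.28 (limma adjusted p = 0.097). For the 7 genes the count that fell was 5 under that scaling and 7 with WT replicate 1 and KO replicate 2 both left out.

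The sizes of the falls were set against each other in pairs of genes, each array giving the difference between the brightest probe sets of the pair. Pairs that share a gene are not independent of each other. How often groups separate among pairs of any genes was not counted, so the count below has no background beside it. In 13 of the 21 pairs among the SLAM and SAP genes the KO arrays did not overlap the WT arrays. Each of these pairs had the smallest p that 3 against 3 arrays allow (two-sided exact permutation p = 0.1, 0.162 after Benjamini-Hochberg adjustment over the 21 pairs), so that no pair could pass. Cd48 and Slamf7 fell by nearly the same amount, with a difference between their differences of 0.00. Sh2d1a fell by 1.43 more than Cd48 and by 1.44 more than Slamf7, with separate groups. Sh2d1a, Slamf6, Ly9 and Cd84 differed from each other by at most 0.44, and in these 6 pairs the groups overlapped.

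Markers of T cells and of several other blood cells moved between the same arrays. Over all genes 18.6% fell and 18.6% rose, the background for each count that follows. All 11 measured T cell markers fell, with a median difference of -1.78, among them Cd247, the zeta chain of the T cell receptor complex, at -2.63 and Cd5 at -2.20. Neutrophil markers rose for 11 of 12 genes, with array means of 6.23 to 7.31 in WT and 10.41 to 13.01 in KO. Mast cell, basophil and eosinophil markers rose for 10 of 11, with array means of 5.63 to 5.83 in WT and 9.56 to 10.08 in KO. Stem and progenitor cell markers rose for 7 of 8, with means of 6.32 to 6.35 against 8.75 to 8.83. Erythroid markers rose for 8 of 8 (7.62 to 8.03 against 10.31 to 11.38), monocyte and macrophage markers for 6 of 11 (5.71 to 6.12 against 7.67 to 8.26) and dendritic cell markers for 5 of 9 (7.11 to 7.27 against 8.39 to 8.48). Of 9 B cell markers 0 rose and 0 fell by limma. The counts were 3 rising without KO replicate 2, 2 rising without KO replicate 3 and 1 falling without KO replicate 1. Cd79b and Vpreb3 were higher at an unadjusted limma p of 0.031 and 0.026 (adjusted p = 0.087 and 0.077), with KO replicate 2 the highest array. Pax5, Blk, Fcer2a and Cr2 were lower in KO on average and the other markers higher, none past the test. The B cell marker means were 5.81 to 6.20 in WT against 6.76, 7.65 and 6.27 in KO replicates 1, 2 and 3. Of 9 NK cell markers 5 fell and 1 rose, with means of 8.60 to 9.05 in WT and 7.64 to 8.51 in KO, and Ncr1, a defining NK cell receptor, stayed dim at 4.55 ± 0.22 (SD) in WT and 4.68 ± 0.21 in KO. The NK cell marker that rose was not called when WT replicate 1, 2 or 3, KO replicate 1 or KO replicate 3 was left out. Of 8 plasma cell markers 2 rose and 1 fell, close to the shares over all genes for a list of this size. Of 8 megakaryocyte and platelet markers 4 rose and 1 fell (0 fell without WT replicate 2). The number of plasma cell markers that rose was 0 without WT replicate 2, 1 when WT replicate 3 or either of KO replicates 1 and 3 was left out, 3 without WT replicate 1, and 6 with WT replicate 1 and KO replicate 2 both left out. RMA values have no zero, so absent markers appear as dim ones. The part of these marker shifts in the falls of the SLAM genes was not tested.

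**Figure D2:**
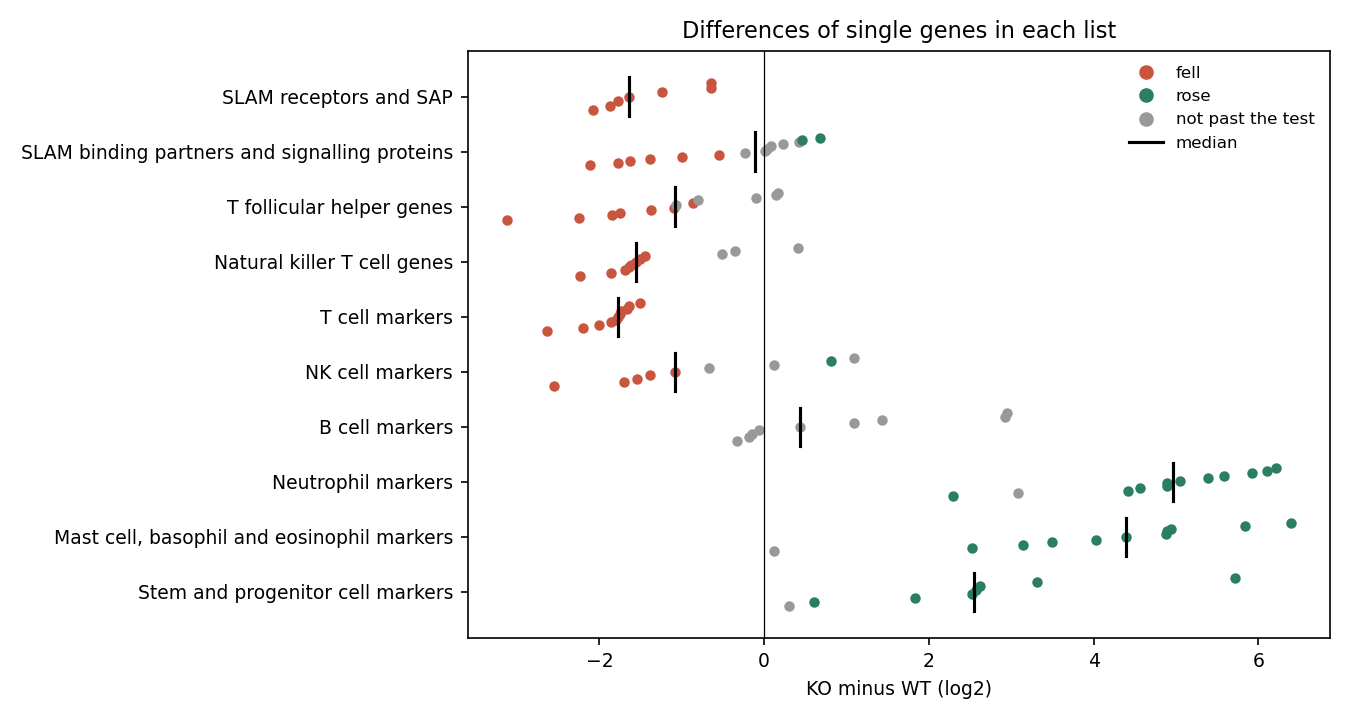
KO minus WT difference (log2) of each measured gene, at its brightest probe set, in the lists of SLAM genes, their partners, T cell states and cell type markers. Points are coloured by whether the gene fell, rose or did not pass the test, and black lines mark medians, which lie at -1.64 for the SLAM genes and -1.78 for the T cell markers.

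KO replicate 2 separated the genes among the KO arrays. In that array the T cell marker mean was lower by -1.30 than the mean of KO replicates 1 and 3, and the B cell marker mean was higher by 1.14. Other list means moved there too, neutrophil markers by -1.61, natural killer T cell genes by -0.91, NK cell markers by -0.73 and erythroid markers by 0.84. The share of all genes that were lowest in this array was not counted. Sh2d1a showed a gap in the same direction as the T cell markers, -1.12, followed by -0.76 for Cd84, -0.67 for Ly9 and -0.48 for Cd48. Slamf1 showed a gap of 0.01 and Slamf7 of 0.26, each at its brightest probe set, and Slamf6 one of 0.35 in 1425086_a_at. The other Slamf1 probe sets, 1425571_at and 1425569_a_at, showed gaps of -0.13 and -0.21, with KO replicate 2 as the lowest KO array in both. Among the KO arrays, Sh2d1a, Cd84, Ly9 and Cd48 were thus lowest in the array where both T cell and neutrophil marker means were lowest. Slamf7 was not, and the probe sets of Slamf1 and of Slamf6 differed in this.

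Each gene was also expressed relative to the T cell marker mean of its own array, where the change between genotypes, not the value itself, can be read. That mean itself changed by -1.87 (KO minus WT), so a gene with no change would stand higher in KO on this scale. The share of all genes with separate groups on this scale was not counted. Sh2d1a stood at -1.47, -1.42 and -0.97 in WT and at -1.57, -1.38 and -1.55 in KO, which overlapped. Ly9 stood at -1.34, -1.37 and -1.36 in WT and at -1.48, -0.84 and -1.46 in KO. For both genes the fall was close to that of the T cell markers, with changes of -0.21 and 0.10 (two-sided exact permutation p = 0.3 and p = 1). Cd84 and Slamf1 changed by 0.23 and 0.62 with overlapping groups (exact permutation p = 0.5 and p = 0.2). Slamf6 changed by 0.00 (exact permutation p = 1), but this average joined KO replicates 1 and 3 at -2.80 and -2.80, below every WT array, with KO replicate 2 at -1.15, above every WT array. Cd48 stood at 0.17, 0.31 and 0.28 in WT and at 1.13, 2.02 and 1.26 in KO, and it was higher in every KO array by 1.22 on average. Slamf7 stood at -4.57, -4.41 and -4.43 in WT and at -3.67, -2.21 and -3.87 in KO, likewise higher by 1.22. For Cd48 and Slamf7 the exact permutation p was 0.1, the smallest possible here, and 0.35 after adjustment over the 7 genes. Without KO replicate 2 the changes were 0.95 for Cd48, 0.70 for Slamf7, 0.19 for Slamf1, 0.05 for Cd84, -0.11 for Ly9, -0.27 for Sh2d1a and -0.55 for Slamf6. Without WT replicate 3 the change of Sh2d1a was -0.05.

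**Figure D3:**
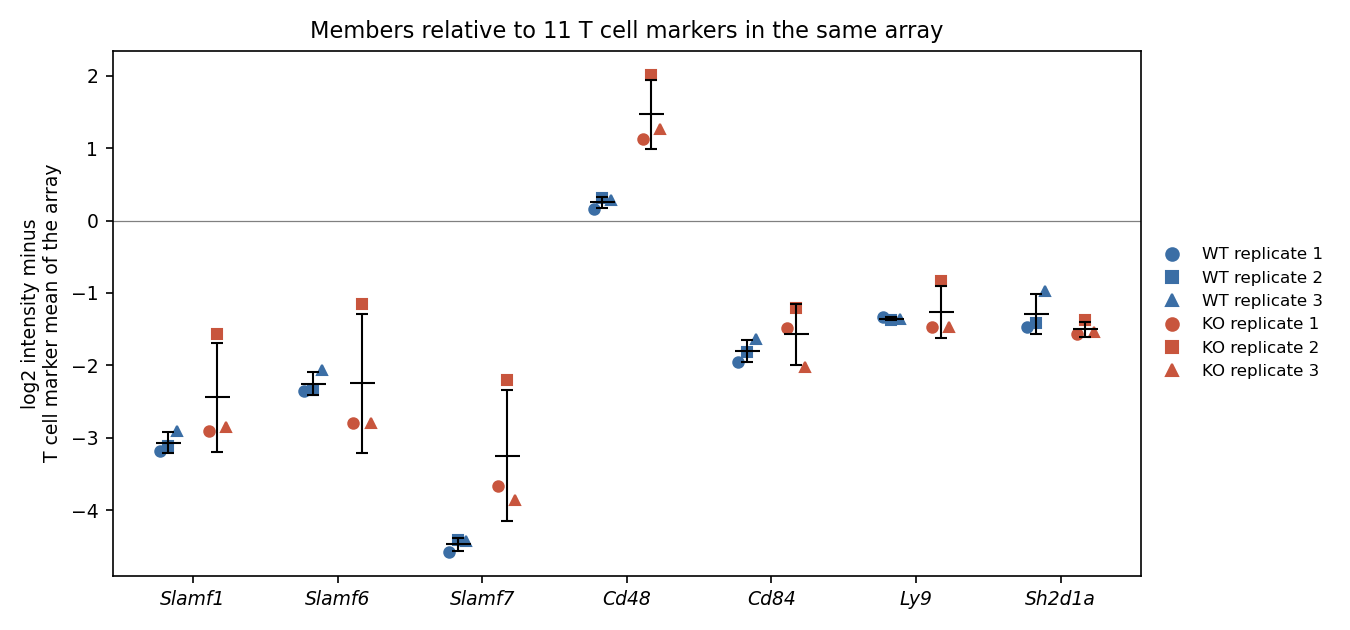
Log2 intensity of each gene's brightest probe set minus the mean of 11 T cell markers in the same array (WT blue, KO red, symbols by replicate number, bars mean and SD, n = 3 per group). Cd48 and Slamf7 lie higher in the KO arrays than in the WT arrays, whereas the other 5 genes overlap. Because the T cell markers fell, a gene with no change would also lie higher in KO here.

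Of the 7 genes, 6 lie side by side on chromosome 1, in the order Ly9, Slamf7, Cd48, Slamf1, Cd84 and Slamf6, from 171588613 to 171948958 in the GRCm38.p6 gene table. This stretch of 360.3 kb holds 7 annotated protein-coding genes, and the 6 measured there were the 6 SLAM genes. Position was not used to choose them, although the family is known to have arisen by duplication at this locus. Next to Ly9, at a distance of 3.3 kb, lies Cd244a, which encodes the SLAM receptor 2B4 of NK cells, mast cells and other myeloid cells, a receptor of CD48. Cd244a moved against its neighbours and rose in KO. Probe set 1426120_a_at read 5.22, 5.34 and 5.23 in WT and 5.94, 5.94 and 5.93 in KO, a difference of 0.67 ± 0.08 (SE; limma adjusted p = 0.00083). Probe set 1449991_at read 4.41, 4.46 and 4.33 in WT and 5.98, 5.65 and 6.19 in KO, a difference of 1.54 ± 0.14 (limma adjusted p = 0.00028). All KO arrays lay above all WT arrays in both probe sets. That order was seen in 18.5% of all probe sets and in 24.1% of all genes at their brightest probe set. How often several probe sets of a gene share it was not counted. Both Cd244a probe sets were dim in WT, below the median probe set mean of 5.77. The mast cell, basophil and eosinophil markers were higher in the same KO arrays by 4.06 on average, and their part in the rise of Cd244a was not tested.

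Outside the stretch, the 5 nearest measured genes on each side, Cd244a among them, did not follow the SLAM genes as a group. Of these 10 genes 4 rose, 1 fell and 5 did not pass the test, beside backgrounds of 18.6% of genes that rose and 18.6% that fell. Arhgap30 fell by 1.18 ± 0.20 (SE; limma adjusted p = 0.0038). F11r, a junctional adhesion molecule, rose by 0.78 ± 0.22, and Vangl2, a planar polarity protein, rose by 0.61 ± 0.17. Pex19, a peroxisome import factor whose values were known before it was picked for mention, rose by 0.49 ± 0.12. The count that rose was 1 without WT replicate 1, and 2 without WT replicate 2, WT replicate 3 or KO replicate 1.

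**Figure D4:**
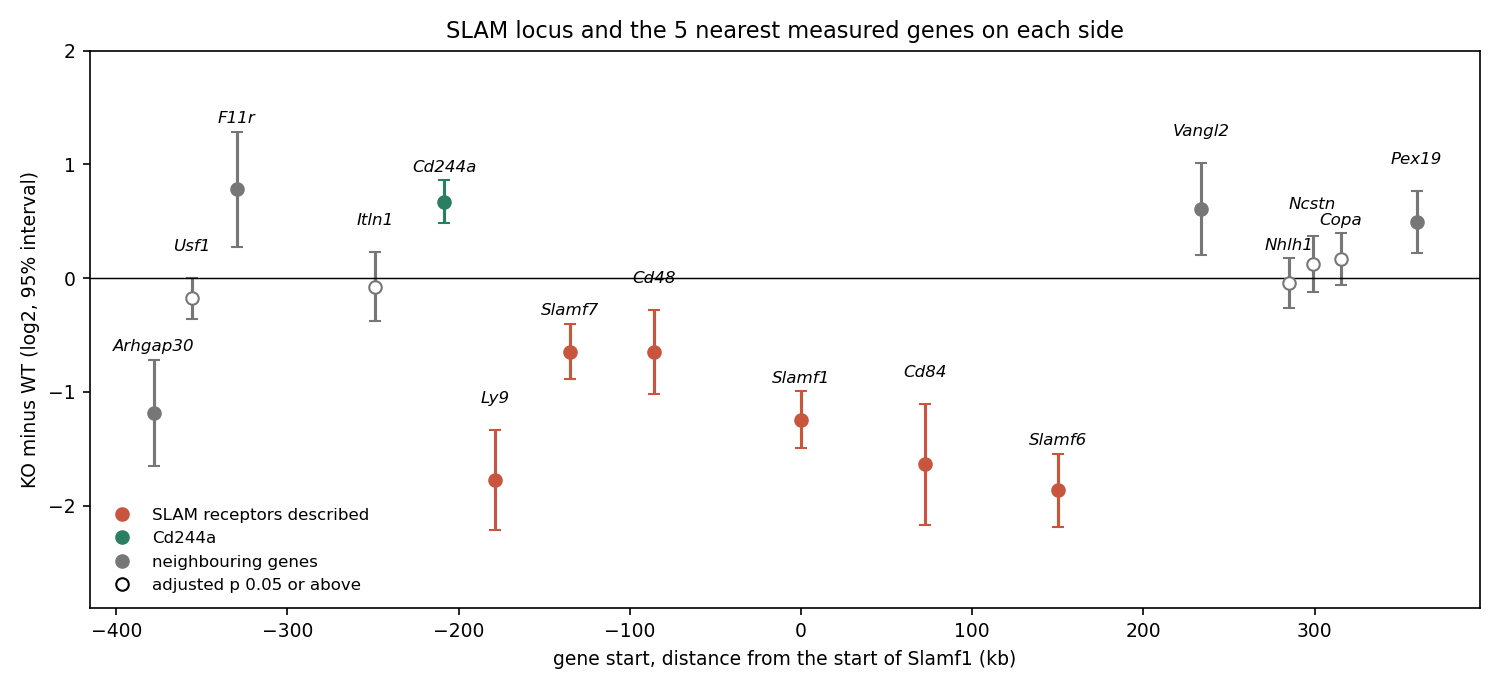
KO minus WT difference (log2) with 95% interval for the measured genes of the SLAM locus and the 5 nearest measured genes on each side, against the distance of the gene's start from that of Slamf1 (kb); filled points passed the test. The 6 SLAM genes in the middle lie below 0, Cd244a beside them lies above 0, and the outer genes lie on both sides of 0.

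Because genes side by side on this locus fell together, their promoter windows (250 bases before to 50 after the start, RefSeq, GRCm38.p6) were searched for 4 short motifs on both strands, each set beside its share among 32851 windows of the same length. The table held windows of 5 of the 7 genes, without Ly9 and Sh2d1a. AGGAAG, a core that ETS factors bind, was found for Slamf1, Slamf7, Cd48 and Cd84 and in 35.4% of all windows. TGTGGT, a core of RUNX factors, was found for Cd48 and Cd84 and in 16.8% of all windows. CAGCTG, an E box that E proteins bind, was found for Slamf1 and Slamf7 and in 16.3%, and TTCCCGC, an E2F core, was found for none of them and in 4.6%. The windows of Slamf6 and of Cd244a held no match to these letters. The windows of Cd48 and Cd84, which hold the same pair of cores, and of Slamf1, which holds the ETS core on both strands, are shown to set these neighbours side by side, 5′ to 3′ on the plus strand, with the matches in capitals (AGGAAG appears as CTTCCT where it lies on the other strand). They lie at chr1:171681742-171682041, chr1:171839447-171839746 and chr1:171766882-171767181.
Cd48: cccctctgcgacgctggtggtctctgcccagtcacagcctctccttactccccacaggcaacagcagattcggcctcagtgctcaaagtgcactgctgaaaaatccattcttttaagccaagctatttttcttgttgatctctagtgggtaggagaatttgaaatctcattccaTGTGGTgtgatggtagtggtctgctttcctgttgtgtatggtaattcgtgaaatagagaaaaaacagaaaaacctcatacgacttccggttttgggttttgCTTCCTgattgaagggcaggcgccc
Cd84: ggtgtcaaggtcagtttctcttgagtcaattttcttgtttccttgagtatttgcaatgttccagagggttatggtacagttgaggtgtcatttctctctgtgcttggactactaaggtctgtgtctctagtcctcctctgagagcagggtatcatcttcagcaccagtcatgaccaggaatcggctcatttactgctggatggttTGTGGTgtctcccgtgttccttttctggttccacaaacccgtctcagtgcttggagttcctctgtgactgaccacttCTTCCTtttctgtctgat
Slamf1: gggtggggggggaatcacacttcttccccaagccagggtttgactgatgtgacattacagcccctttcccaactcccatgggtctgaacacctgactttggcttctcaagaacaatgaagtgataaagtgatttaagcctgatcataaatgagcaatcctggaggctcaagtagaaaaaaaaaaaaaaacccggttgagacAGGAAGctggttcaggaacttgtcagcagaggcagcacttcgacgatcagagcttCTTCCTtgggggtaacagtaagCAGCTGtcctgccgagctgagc
Relative to the start on which each window is set, the RUNX core of Cd48 and Cd84 lies before it and the ETS core after it, and in Slamf1 an ETS core lies on each side. For Cd48 that start lies downstream of the gene start at 171681245 in the gene table, so the whole Cd48 window lies within the annotated gene. The windows of Slamf7 and of Cd244a likewise lie wholly within their annotated genes. The matches are descriptions of letters, not of binding.

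Among the partners and signalling proteins of SLAM receptors, Cd2, Fyn and Prkcq fell, while Ptpn6, Ptpn11 and Inpp5d did not pass the test at their brightest probe sets. Of 14 measured genes 6 fell, 2 rose and 6 did not pass the test, with a median difference of -0.11, beside 18.6% that fell and 18.6% that rose among all genes. Cd2, the receptor of CD48 on T cells, read 12.38, 12.51 and 12.53 in WT and 10.71, 9.43 and 10.94 in KO, a difference of -2.11 ± 0.36 (SE; limma adjusted p = 0.004). Its KO arrays lay far below WT, with KO replicate 2 lowest, as for Sh2d1a. Fyn, the kinase that SAP recruits, read 11.99, 12.01 and 12.10 in WT and 10.52, 10.06 and 10.64 in KO, a difference of -1.62 ± 0.15, and its other probe set gave -1.74 ± 0.16. Prkcq, protein kinase C theta, which acts downstream of SAP and FYN, fell by 1.78 ± 0.28. Dok2, an adaptor that dampens receptor signals, fell by 1.39 ± 0.18, Csk, the kinase that restrains FYN, by 1.00 ± 0.11, and the exchange factor Vav1 by 0.55 ± 0.14. A further Vav1 probe set differed by -0.15 (limma adjusted p = 0.44).

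The inhibitory enzymes that SLAM receptors can recruit in the absence of SAP showed small differences in the values as deposited. Ptpn6 (SHP-1), Ptpn11 (SHP-2) and Inpp5d (SHIP-1) differed by -0.23 ± 0.15, 0.08 ± 0.10 and 0.04 ± 0.11 (SE), with 95% intervals of -0.57 to 0.12, -0.15 to 0.32 and -0.21 to 0.29. The dimmer Ptpn11 probe set 1427699_a_at rose by 0.42 ± 0.11. Dok1 and Arhgef7, the latter an exchange factor that can bind SAP, differed by 0.23 ± 0.12 and 0.01 ± 0.09. The myeloid SLAM receptor Slamf8 was dim, at 3.91 ± 0.26 (SD) in WT and 4.37 ± 0.12 in KO, and rose by 0.46 (limma adjusted p = 0.047). The number of genes that rose in this list was 1 without WT replicate 1, 2 or 3, KO replicate 1 or KO replicate 3. It was 7 under hybridization-control scaling, which raises every difference. Slamf9, likewise a receptor of myeloid cells, differed by 0.43 ± 0.16 (limma adjusted p = 0.09). Sh2d1b1 and Sh2d1b2, relatives of SAP, and Lck were not analysed here.

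Lists of genes of T follicular helper cells and natural killer T cells, which are known to need SAP, were examined next. Of 12 T follicular helper genes 7 fell and 0 rose, beside 18.6% of all genes that fell, with a median difference of -1.08. All 11 T cell markers fell, with a median of -1.78. The count of T follicular helper genes that fell was 5 without WT replicate 1, without WT replicate 3 or under hybridization-control scaling. Cxcr5, the chemokine receptor that leads T cells into B cell follicles, read 8.56, 8.93 and 9.31 in WT and 6.24, 5.19 and 6.00 in KO, a difference of -3.12 ± 0.29 (SE; limma adjusted p = 3e-04). Icos, a costimulatory receptor, fell by 2.25 ± 0.30, and the inhibitory receptors Pdcd1 and Btla fell too, with differences of -1.85 ± 0.41 and -1.74 ± 0.41. Bcl6, the defining transcription factor of these cells, differed by -0.80 ± 0.28 and did not pass the test (limma adjusted p = 0.069). Il21, their cytokine, read 6.17, 6.64 and 8.69 in WT and 6.65, 5.58 and 6.06 in KO, so that the groups overlapped and WT replicate 3 stood above the rest.

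Of 11 natural killer T cell genes 8 fell and 0 rose, beside the same 18.6%, with a median of -1.56 against -1.78 for the T cell markers. Ccl5, a chemokine of cytotoxic lymphocytes, fell by 2.23 ± 0.22 (SE). Differences were -1.86 ± 0.27 for Ifng, interferon gamma, -1.69 ± 0.35 for Cxcr6, a homing receptor, and -1.64 ± 0.37 for Klrd1, the NK receptor chain CD94. Conventional and memory T cells and NK cells express these 4 genes too. Zbtb16, which encodes PLZF, the factor that defines natural killer T cells, was dim and read 5.59, 5.58 and 5.27 in WT and 6.06, 5.63 and 6.00 in KO. It differed by 0.42 ± 0.15 in the other direction, without passing the test (limma adjusted p = 0.074). The number of genes of this list that rose was 1 without KO replicate 2. That number was also 1 with repeated quantile normalization, median centring, hybridization-control scaling, array weights or a threshold of 0.10.

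The genes whose values ran most like those of each SLAM gene over the 6 arrays were found by Pearson correlation among 16307 genes, as a description. With arrays of only a pair of genotypes, r was at least 0.9 for between 10.3% (Cd48) and 15.8% (Slamf1) of these genes. The closest to Sh2d1a were Pgs1, Snapc1 and Zdhhc18 (r = 0.999, 0.998 and 0.998), and to Ly9 Zbtb4, Tgoln1 and Tgfbr2, the last a receptor of TGF-beta. Slamf6 ran most like Pdcd10, Galnt12 and Slu7, and Cd84 like Capn2, Crtc3 and Zc3h12a. Slamf1 ran most like Rngtt, Rap2b and Setd4. Cd48 ran most like Socs1, an inhibitor of cytokine signalling, Celf3 and Spin2c, and Slamf7 like Akap2, Polr3c and Bend5. Their own differences ranged from -2.05 for Galnt12 to -0.22 for Celf3.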

How the data were processed

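RNA of splenic T cells from 3 KO and 3 WT mice was amplified, biotin-labelled and hybridized to Affymetrix 1-colour arrays, per the labels. The deposited values are log2 probe-set intensities made by the authors with RMA (version not given), per the submitters' processing notes, and were used as deposited. Of 45101 probe sets 64 array controls were left out and 45037 tested. The platform annotation gave 1 gene for 34945, several for 932 and none listed for 9160, and 34741 matched the GRCm38.p6 gene table by Entrez ID. Genes were taken at the probe set with the highest mean.

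R 4.3.3 and limma 3.58.1 fitted genotype with lmFit and eBayes (no trend), with two-sided p values adjusted over all probe sets, after the scripts were tested on simulated data. Single values used exact permutation of arrays. The genes and lists were chosen with earlier results of these data known. Named genes were the 7 genes, their partners, the T cell state and marker genes with the largest called differences (up to 4 a list), up to 4 called neighbours, and the 3 closest patterns a gene. Bcl6, Il21, Zbtb16, Ncr1 and the B cell markers, none past the test, were named outside this rule. Alternatives were a filter at the median level, repeated quantile normalization, median centring, hybridization-control scaling, trend with robust fitting, array weights, a replicate block, other thresholds, left-out arrays, probe-set means and a T cell reference of 3 CD3 genes. Same-numbered arrays of the genotypes deviated from their group means with correlations of 0.10, -0.24 and -0.20. These gave no sign of pairing by number, but 3 arrays per group cannot exclude it. RMA gives no detection calls, and differences of dim probe sets are understated.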

Additional observations from a re-analysis of the deposited data

How the results depend on the processing

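All 12 SLAM and SAP probe sets kept a negative difference under every alternative that could be run, 16 for 11 of them and 15 for Slamf1 1425569_a_at, which the filter at the median level removed. That filter, trend with robust fitting, the replicate block and the other thresholds leave the difference itself as it was. Its sign could therefore not change under these alternatives, and only the call could. The T follicular helper genes that rose were 2 under hybridization-control scaling. The calls of Slamf1, Slamf6, Ly9, Sh2d1a and Cd84 1422875_at were kept throughout, with adjusted p values up to 0.014. Scaling to the hybridization controls gave -0.28 for Slamf7 (limma adjusted p = 0.097) and -0.28 for Cd48 (limma adjusted p = 0.23). It moved the median of all probe sets from -0.08 to 0.29 and the share of changed probe sets that rose from 47.2% to 88.1%, with 17309 rising and 2337 falling against 6242 and 6986 as deposited. Leaving out each array in turn gave -0.81 to -0.49 for Cd48 (limma adjusted p up to 0.068). Among the partners the number that rose was 1 to 2 when each array was left out, 0 above the median level, 1 at a change of at least 1.5-fold and 7 under hybridization-control scaling, against 2. With at least 1.5-fold, 3856 probe sets fell, and 1958 genes against 3379. Relative to Cd3d, Cd3e and Cd3g alone the change of Sh2d1a was -0.44 in place of -0.21. That reference moved all 7 genes down by the same amount, so the small changes of Ly9 and Slamf6 became negative. The replicate block, which joins arrays by number although no pairing is known, left 7 of the 7 genes and 11 of the 12 probe sets falling. RMA values carry no background calls, which limits the dim probe sets of Cd244a, Slamf8 and Zbtb16 most.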
